A study of Rattus norvegicus with 6 samples.

Results

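Schwann cells are the glia of peripheral nerve. The transcription factor Sox10 holds their lineage identity, the neuregulin receptor Erbb3 receives survival and myelination signals from axons, and Pou3f1 and then Egr2 drive the step to myelination, at which Egr2 turns on the genes of peripheral myelin. Before that step, and again after nerve injury, Schwann cells carry Sox2 and the neurotrophin receptor Ngfr instead. The expression of 10 genes of this programme was read in the deposited table by symbol (Sox10, Egr2, S100b, Ngfr, Erbb3, Pmp22, Mbp, Cnp, Sox2 and Pou3f1). A row was found for 9 of the 10, each symbol having 1 row, out of 33350 gene models. Pou3f1 was not analysed here.

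The 6 libraries come from rat cells that carry the label PC12. That line was established from a pheochromocytoma, a tumour of the catecholamine-producing chromaffin cells of the adrenal gland. In the 3 EN libraries the cells had been given exosomes, small vesicles passed between cells, from endothelial cells with high expression of NTN1, the gene of the axon guidance protein netrin-1. In the 3 EC libraries they had been given exosomes from control endothelial cells, so that both groups received endothelial exosomes. The labels give no exosome dose, time of exposure or species of the endothelial cells, and cells without exosomes were not analysed here. The labels do not call the replicates separate cultures. The p-values therefore cover the spread among these libraries, whether technical or biological.

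PC12 is used below as a label and not as an identity, because marker genes stood apart from it in both groups. Of 16 chromaffin markers, 3 reached a mean of 1 FPKM (reads scaled to gene length and library size), none reached 10, and Pnmt and Hand2 had no read in any library, which for Hand2 allows up to 0.046 FPKM (3 reads over all libraries). The 3 highest were the vesicle fusion gene Snap25, the vesicular monoamine transporter gene Slc18a2 and tyrosine hydroxylase (Th), at 4.41, 4.39 and 1.47 FPKM on average. Of the 9 Schwann genes, 8 reached 1 FPKM and 6 reached 10. The median over these 9 was 61.9 FPKM, against 0.099 for the chromaffin list, 0.094 for 12 oligodendrocyte genes, 0.102 for 12 fibroblast genes, 0.242 for 11 endothelial genes and 1.68 for 6 melanocyte genes. A mean of 1 FPKM was reached by 5 of 12 oligodendrocyte, 4 of 12 fibroblast, 4 of 11 endothelial and 3 of 6 melanocyte genes. A mean of 10 FPKM was reached by 4, 2, 0 and 0 of them. The medians alone do not separate Schwann cells from cells of the oligodendrocyte lineage. Wider lists of the Schwann programme did not all stand as high. Their medians were 25.97 FPKM for 26 transcriptional regulators and 9.95 for 12 myelin lipid genes, but 1.98 for 28 genes of myelin structure, 1.78 for 24 genes of the immature and repair states and 3.07 for 25 receptors and axonal signals, and Gldn, Ugt8, Shh and Fabp7 had no read. The regulator and lipid lists also hold genes not particular to Schwann cells. Their medians are therefore not read as signs of Schwann identity. The 9 genes were chosen with earlier results of these data known. Summed chromaffin levels were 10.5 to 11.0 FPKM in EN and 12.3 to 13.4 FPKM in EC, and summed endothelial levels were 13.3 to 14.1 FPKM in EN and 10.02 to 12.1 FPKM in EC, the endothelial claudin gene Cldn5 having no read. The oligodendrocyte and fibroblast lists share their highest gene, the growth factor receptor gene Pdgfra, at 64.8 FPKM (with a clone-named model on the opposite strand). The oligodendrocyte genes Nkx6-2, Opalin and Ermn and the fibroblast genes Lum and Dpt had no read. Summed oligodendrocyte levels were 141.1 to 143.6 FPKM in EN and 135.5 to 138.0 FPKM in EC, and summed fibroblast levels were 104.7 to 108.0 FPKM in EN and 104.0 to 108.4 FPKM in EC. After Pdgfra, the highest were the proteoglycan gene Cspg4 and the transcription factor gene Nkx2-2 in the oligodendrocyte list, at 41.9 and 14.9 FPKM, and Fbln1 and Pdgfrb in the fibroblast list, at 31.2 and 8.47 FPKM. The highest endothelial genes were Egfl7, Flt1 and Tie1, at 5.11, 3.64 and 1.73 FPKM. Ntn1 itself had 4 reads over all 6 libraries. Depth was 16654025 to 19626012 reads in EN and 15296193 to 16165804 reads in EC, and the mitochondrial share of reads was 4.40% to 5.50% in EN and 5.43% to 6.09% in EC. The part of depth, of the mitochondrial share and of other cells' markers in the results was not tested. In bulk RNA such as this, fewer cells of a type and less RNA per cell cannot be told apart.

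**Figure D1:**
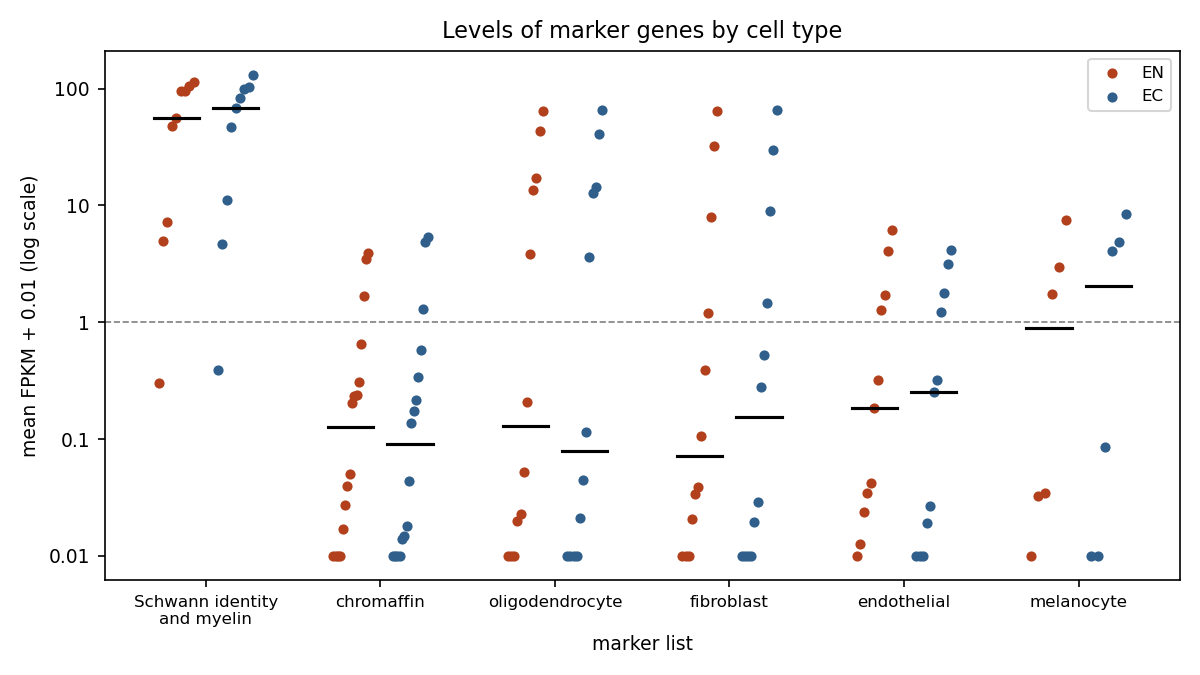
Mean FPKM plus 0.01 of each marker gene on a log scale, in EN (red) and EC (blue), for the Schwann genes and 5 lists of other cell types. Each point is a gene, the black lines are list medians and the dashed line marks 1 FPKM. The median of the 9 Schwann genes, 61.9 FPKM over both groups, stands above those of the 5 lists drawn, and medians of wider Schwann lists, not drawn, were 1.78 to 25.97 FPKM.

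EN was set against EC to ask whether transcripts of the recipient cells differ when the exosomes came from endothelial cells with high netrin-1. The myelin activator Egr2, the calcium-binding protein gene S100b and the compact myelin gene Pmp22 were lower in EN, by 1.53-fold, 1.38-fold and 1.21-fold in mean FPKM. The neurotrophin receptor gene Ngfr was 1.14-fold higher in EN. With 1 library left out in turn, the call was kept in only 2 of 6 fits for Ngfr and in 4 of 6 for Pmp22. The lineage factor Sox10 and the neuregulin receptor gene Erbb3 did not pass the test, with 95% intervals that lay within 0.17 of 0 on the log2 scale. Sox2, Cnp and Mbp did not pass either. Levels were compared with limma on log2(FPKM + 1). The 12198 genes that averaged 1 FPKM or more were tested, and the threshold was a Benjamini-Hochberg adjusted p under 0.05 over all of them. Of the 9 members, 8 met that minimum and Mbp did not, and of these 8, 3 fell, 1 rose and 4 did not pass. Over all genes tested, 7.14% were lower and 7.24% were higher, 14.4% in all. The groups did not overlap in the 4 members past the threshold, nor in 37.9% of all genes tested. The median log2 change was 0.024 over the 8 members and -0.0028 over all genes tested. Of the 4 members that did not pass, Sox10, Erbb3 and Cnp had log2 changes of 0.029, 0.019 and 0.060, and that of Sox2, 0.18, was close to the 0.19 of Ngfr.

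**Figure D2:**
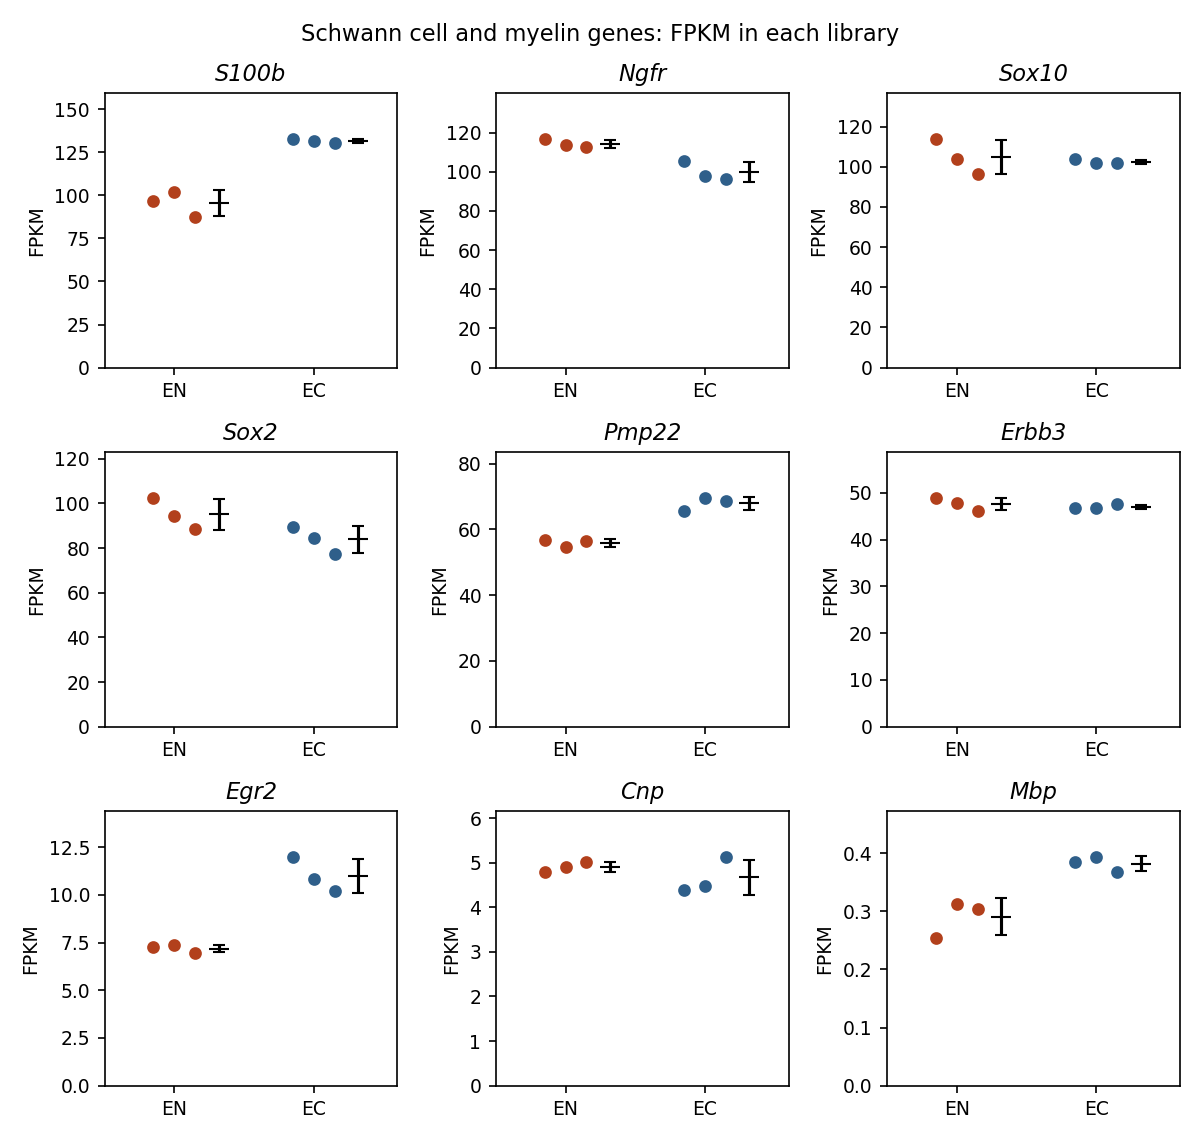
FPKM of the 9 Schwann cell and myelin genes in each library, EN (red) left of EC (blue), on axes that start at 0. Points are the 3 libraries of a group in replicate order and the black marks are mean and SD. The groups do not overlap for S100b, Ngfr, Pmp22, Egr2 and Mbp, as for 37.9% of all genes tested. Mbp had 15 to 21 reads per library and lay under the expression minimum.

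The start regions of the 3 genes that were lower are shown here so that their promoters can be compared. RefSeq windows of 300 bases (250 before a transcription start and 50 after it, GRCr8 assembly, which is not the build of the expression table) were found for 6 of the 10 members. The windows were searched on both strands for ACAAAG and ACAATG (cores bound by SOX factors), GCGTGGGCG and GCGGGGGCG (bound by EGR factors), GGGCGG (the GC box), TATAAA (the TATA box) and CCAAT. No 2 of these motifs overlap in the windows shown. Capitals mark every match, and ATTGG is CCAAT on the opposite strand.
Egr2, chr20:21054392-21054691, minus strand: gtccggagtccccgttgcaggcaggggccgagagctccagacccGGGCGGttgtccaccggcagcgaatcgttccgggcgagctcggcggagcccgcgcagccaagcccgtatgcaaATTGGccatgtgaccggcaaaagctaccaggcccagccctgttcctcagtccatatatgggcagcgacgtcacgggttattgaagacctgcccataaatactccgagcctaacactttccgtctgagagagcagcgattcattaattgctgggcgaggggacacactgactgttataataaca
S100b, chr20:12381032-12381331, minus strand: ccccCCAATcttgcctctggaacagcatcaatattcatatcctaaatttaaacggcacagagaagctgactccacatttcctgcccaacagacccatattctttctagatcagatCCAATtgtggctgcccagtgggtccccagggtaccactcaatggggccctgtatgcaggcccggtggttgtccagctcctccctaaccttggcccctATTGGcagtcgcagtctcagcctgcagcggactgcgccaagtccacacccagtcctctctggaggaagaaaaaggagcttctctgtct
Pmp22, chr10:48294682-48294981, plus strand: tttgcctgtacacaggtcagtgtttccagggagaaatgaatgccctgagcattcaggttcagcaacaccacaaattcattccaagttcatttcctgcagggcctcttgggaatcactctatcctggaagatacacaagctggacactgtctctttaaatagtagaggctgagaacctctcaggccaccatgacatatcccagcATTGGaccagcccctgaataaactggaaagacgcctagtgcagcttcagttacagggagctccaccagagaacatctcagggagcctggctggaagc
Each of the 3 windows holds CCAAT, 3 times in S100b and once in Egr2 and in Pmp22, and so do 37.5% of the 33469 windows of that length in the table. The Egr2 window also holds a GC box, found in 33.1% of all windows. The SOX cores ACAAAG and ACAATG, found in 18.8% and 13.2% of all windows, the EGR sequences, in 0.544% and 2.73%, and the TATA box, in 14.2%, have no match in these 3 windows.

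Among the regulators, Egr2 encodes the zinc finger factor that switches on and maintains myelin genes (chromosome 20, 22454463 to 22459025 on Rnor_6.0, minus strand). Egr2 was at 7.25, 7.36 and 6.97 FPKM in EN replicates 1 to 3, against 12.0, 10.8 and 10.2 FPKM in EC replicates 1 to 3. All EN libraries lay below all EC libraries, as for 19.4% of all genes tested, and the EN libraries lay closer together. The means were 7.19 ± 0.204 FPKM in EN and 11.0 ± 0.888 FPKM in EC (SD, n = 3 each). On the log2 scale EN minus EC was -0.55 (SE 0.069, 95% interval -0.71 to -0.39, limma adjusted p = 0.0070). With each library left out in turn the limma adjusted p was 0.014 to 0.037. Egr2 rested on 373 to 597 reads per library, a counting error of 4.09% to 5.18%.

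Sox10 keeps Schwann identity through all stages and acts with Egr2 on myelin genes (chromosome 7, 120393254 to 120403523, minus strand). Sox10 was at 113.7, 104.1 and 96.6 FPKM in EN replicates 1 to 3, against 103.6, 101.9 and 101.8 FPKM in EC replicates 1 to 3. The EN libraries lay on both sides of the EC libraries. The log2 change was 0.029 (SE 0.059, 95% interval -0.11 to 0.17, limma adjusted p = 0.77), and it was -0.031 without EN replicate 1. A model named only by its clone lies across Sox10 on the opposite strand. No source states a strand-specific count, so reads of the pair cannot be told apart.

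Sox2 is a factor of immature Schwann cells and, in mouse, restrains myelination (chromosome 2, 121165137 to 121167545, plus strand). Sox2 was at 102.3, 94.2 and 88.6 FPKM in EN replicates 1 to 3, against 89.6, 84.5 and 77.5 FPKM in EC replicates 1 to 3. EN replicate 3 lay below EC replicate 1, so the groups overlapped. The log2 change of 0.18 (SE 0.071, 95% interval 0.012 to 0.35) did not pass after adjustment (limma adjusted p = 0.13).

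Among the receptors, Ngfr encodes p75, the neurotrophin receptor of immature and repair Schwann cells (chromosome 10, 83389847 to 83408061, minus strand). Ngfr was at 116.6, 113.6 and 112.7 FPKM in EN replicates 1 to 3, against 105.5, 98.0 and 96.2 FPKM in EC replicates 1 to 3. Each EN library lay above each EC library, as for 18.6% of all genes tested. The log2 change was 0.19 (SE 0.044, 95% interval 0.090 to 0.30, limma adjusted p = 0.032). The limma adjusted p was 0.101 without EN replicate 1, 0.102 without EN replicate 2, 0.116 when EC replicate 2 was left out and 0.105 when EC replicate 3 was. Ngfr had the highest read number of the members, at 4816 to 7361 per library, so counting error of 1.17% to 1.44% was below the spread between libraries.

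Erbb3 encodes the receptor that binds neuregulin and signals with Erbb2 (chromosome 7, 2989340 to 3010350, minus strand). Erbb3 was at 48.9, 47.9 and 46.2 FPKM in EN replicates 1 to 3, against 46.8, 46.8 and 47.6 FPKM in EC replicates 1 to 3. The groups overlapped, and on the log2 scale EN minus EC was 0.019 (SE 0.037, limma adjusted p = 0.76). The 95% interval, -0.069 to 0.107, was the narrowest of the 8 tested members. Its partner gene Erbb2, named after its value was seen, was at 5.76 ± 0.222 FPKM in EN and 5.11 ± 0.290 FPKM in EC (SD, n = 3 each) and did not pass (log2 change 0.15, limma adjusted p = 0.198).

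Among the glial and myelin proteins, S100b encodes a calcium-binding protein long used as a Schwann marker (chromosome 20, 13130636 to 13142856, minus strand). S100b was at 96.8, 102.1 and 87.3 FPKM in EN replicates 1 to 3, against 132.5, 131.2 and 130.2 FPKM in EC replicates 1 to 3. The groups did not overlap, EN being lower and more spread. The means were 95.4 ± 7.47 FPKM in EN and 131.3 ± 1.147 FPKM in EC (SD, n = 3 each). The coefficient of variation was 7.83% in EN and 0.874% in EC, where counting error alone was 1.98% in EN and 1.82% in EC. The log2 change was -0.46 (SE 0.058, 95% interval -0.60 to -0.32, limma adjusted p = 0.0070), and with each library left out in turn the limma adjusted p was 0.0070 to 0.037.

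Pmp22 encodes a membrane protein of compact peripheral myelin whose gene dosage underlies inherited neuropathies in humans (chromosome 10, 49538588 to 49568583, plus strand). Pmp22 was at 56.7, 54.5 and 56.6 FPKM in EN replicates 1 to 3, against 65.6, 69.5 and 68.7 FPKM in EC replicates 1 to 3. No EN library reached the lowest EC library. The means were 55.9 ± 1.254 FPKM in EN and 67.9 ± 2.06 FPKM in EC (SD, n = 3 each). On the log2 scale EN minus EC was -0.28 (SE 0.039, 95% interval -0.37 to -0.18, limma adjusted p = 0.0096). The limma adjusted p was 0.0515 without EN replicate 2 and 0.0505 without EC replicate 2.

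Cnp encodes an enzyme of the cytoplasmic face of glial membranes (chromosome 10, 88490798 to 88497356, plus strand). Cnp was at 4.79, 4.91 and 5.01 FPKM in EN replicates 1 to 3, against 4.40, 4.49 and 5.12 FPKM in EC replicates 1 to 3. EC replicate 3 was the highest of all 6 libraries and the groups overlapped. The log2 change was 0.060 (SE 0.078, 95% interval -0.12 to 0.25, limma adjusted p = 0.63), with a counting error of 6.67% to 8.01% from 156 to 225 reads per library.

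Mbp encodes myelin basic protein, which holds the cytoplasmic faces of compact myelin together (chromosome 18, 79326738 to 79437310, plus strand). Mbp was at 0.254, 0.313 and 0.304 FPKM in EN replicates 1 to 3, against 0.385, 0.393 and 0.368 FPKM in EC replicates 1 to 3. The groups did not overlap, EN being lower, but each value rested on 15 to 21 reads, 53 in all in EN and 60 in all in EC. The exact 95% Poisson intervals, which cover counting error only, were 0.194 to 0.478 FPKM for EN replicate 2 and 0.225 to 0.569 FPKM for EC replicate 3. These are the nearest libraries of the groups, and the overlap of their intervals is not a test of the group difference. Mbp lay under the expression minimum, and in the fit without that minimum its log2 change was -0.099 (limma adjusted p = 0.29). Another gene model on the same strand overlaps Mbp, so its reads may be divided.

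**Figure D3:**
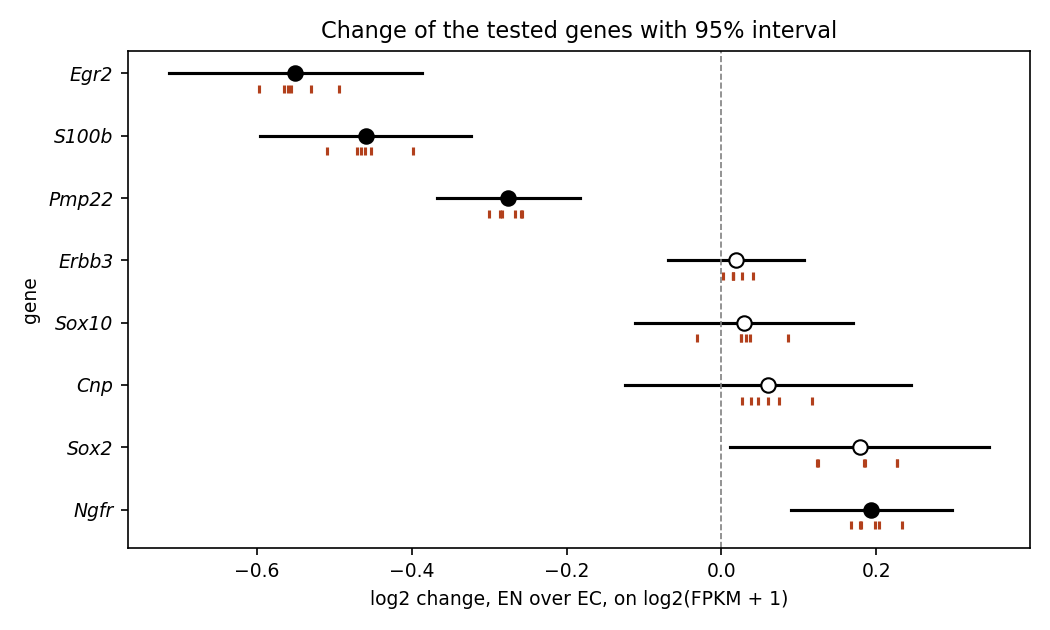
Log2 change of EN over EC on the log2(FPKM + 1) scale for the 8 tested members, with the 95% interval of the limma fit as a line. Filled points passed the threshold, open points did not, and red ticks are the changes with 1 library left out. Egr2, S100b and Pmp22 lie below 0 and Ngfr above 0 with every library left out in turn, while the ticks of Sox10 cross 0.

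Levels per length in FPKM spanned from Mbp, under 1, to genes above 100. In EN the order was Ngfr, Sox10, S100b, Sox2, Pmp22, Erbb3, Egr2, Cnp and Mbp, and in EC it was S100b, Sox10, Ngfr, Sox2, Pmp22, Erbb3, Egr2, Cnp and Mbp. In EN, the ranges of neighbours from Ngfr to Sox2 overlapped, S100b lying above Sox2 in only 1 of 3 libraries. In EC, only Sox10 and Ngfr overlapped, Sox10 being higher in 2 of 3 libraries. From Sox2 downward no neighbours overlapped in either group. S100b thus stood first in EC, at 131.3 FPKM, and behind Ngfr and Sox10 in EN, at 95.4 FPKM.

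Ratios to Sox10 in the same library do not depend on how libraries are scaled, and were taken for the other 8 genes. The ratio of Egr2 to Sox10 was 0.0637, 0.0707 and 0.0721 in EN replicates 1 to 3, against 0.116, 0.106 and 0.1005 in EC replicates 1 to 3, 1.56-fold lower in EN on average. The ratio of S100b to Sox10 was 0.851, 0.981 and 0.904 in EN replicates 1 to 3, against 1.28, 1.29 and 1.28 in EC replicates 1 to 3, 1.405-fold lower in EN on average. The ratios of Pmp22, Ngfr, Sox2 and Mbp to Sox10 did not overlap between the groups either, with Pmp22 and Mbp lower and Ngfr and Sox2 higher in EN, while those of Erbb3 and Cnp overlapped. Mbp rested on 15 to 21 reads per library. All 8 ratios share Sox10, so they are not separate observations. The share of all genes whose ratio to Sox10 does not overlap was not computed, and in FPKM 37.9% of all genes tested did not overlap. With 3 libraries against 3, the exact two-sided permutation test cannot go below p = 0.1, which all 6 ratios without overlap gave (0.133 adjusted over the 8 ratios).

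Other genes of the Schwann programme were read from 5 lists chosen with earlier results of these data known. They hold 114 gene models other than the members, of which 76 were tested, 17 fell, 7 rose and 52 did not pass (limma adjusted p under 0.05), 31.6% past the threshold against 14.4% of all genes. As the lists were chosen with results known, the share above 14.4% is not read as a result about them. The median log2 change over the 76 was -0.037, beside -0.0028 over all genes tested. With each library left out in turn, 9 of the 24 genes past the threshold kept their call every time, 8 lower and 1 higher. Among them were Egr1, Id4, Hes1, Cyp51, Cryab and Gas7, which were lower, and Cd82, which was higher. The counts were 8 or 9 lower and 1 higher without EN replicate 1, EN replicate 2, EC replicate 2 or EC replicate 3.

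Among 17 tested genes of myelin structure and membrane, 6 fell, 2 rose and 9 did not pass (median log2 change -0.034). That is 47.1% past the threshold, beside 14.4% of all genes tested. The laminin chain gene Lama4 and the laminin-binding integrin gene Itga6, both named after their values were seen, each fell by 0.20 on the log2 scale, with limma adjusted p of 0.021 and 0.026. Both calls were lost without EN replicate 1, EN replicate 2, EC replicate 2 or EC replicate 3, where the highest limma adjusted p was 0.086 for Lama4 and 0.098 for Itga6. The myelin proteolipid gene Pllp (plasmolipin) and the tetraspanin gene Cd82 were the members that rose. Cd82 averaged 209.2 ± 11.1 FPKM in EN and 151.5 ± 6.98 FPKM in EC, and Pllp averaged 11.7 ± 0.473 FPKM in EN and 9.28 ± 0.407 FPKM in EC (SD, n = 3 each). The limma adjusted p of Pllp was 0.021, and 0.075 at most with 1 library left out, a call lost without the same libraries. Without any 1 of those 4 libraries the list had 2 genes lower and 1 higher. Of the 28 list genes, 11 were under the expression minimum, and some genes of mature myelin were near 0 in both groups. The myelin glycoprotein gene Mag and the proteolipid gene Mal had 2 and 3 reads over all 6 libraries (both named after their values were seen).

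Among 24 tested transcriptional regulators, 5 fell, 3 rose and 16 did not pass (median log2 change -0.027). The share past the threshold was 33.3%, beside 14.4% of all genes tested. Egr1, an immediate early factor of the same family as Egr2, averaged 19.0 ± 0.790 FPKM in EN and 38.7 ± 1.17 FPKM in EC (SD, n = 3 each). On the log2 scale Egr1 changed by -0.99 (SE 0.047, limma adjusted p = 3.18e-04). The helix-loop-helix inhibitor gene Id4 fell by 0.34 and the Notch target Hes1 by 0.40 on the log2 scale, with limma adjusted p of 0.0088 and 0.010. The YAP relative Wwtr1 (TAZ) rose by 0.24 (limma adjusted p = 0.022, and 0.085 at most with 1 library left out). Pou3f2, a relative of Pou3f1 that is also expressed in Schwann cells, was at 12.2, 11.3 and 13.2 FPKM in EN replicates 1 to 3, against 9.72, 9.56 and 8.45 FPKM in EC replicates 1 to 3 (named after its values were seen). All EN libraries of Pou3f2 lay above all EC libraries, by 0.37 on the log2 scale (SE 0.078, limma adjusted p = 0.026, and 0.082 at most with 1 library left out). Jun, a driver of the repair state of Schwann cells in mouse, was at 197.5 ± 2.66 FPKM in EN and 192.8 ± 3.50 FPKM in EC (SD, n = 3 each) and did not pass (log2 change 0.035, limma adjusted p = 0.50). The Egr2 corepressor genes Nab1 and Nab2 had log2 changes of -0.28 and 0.24 and did not pass (limma adjusted p of 0.070 and 0.104), and Stat6 overlaps Nab2 on the opposite strand. Jun, Nab1 and Nab2 were named after their values were seen. Without EN replicate 1, EN replicate 2, EC replicate 2 or EC replicate 3 the list had 3 genes lower in limma and 0 higher, while 6 of its genes were higher at an unadjusted p under 0.05 with all libraries and voom, limma's method for read numbers, called 7.

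Among 14 tested genes of the immature and repair states, 4 fell, 1 rose and 9 did not pass (median log2 change -0.117). The share past the threshold was 35.7%, beside 14.4% of all genes tested. The small heat shock protein gene Cryab was at 349.1, 348.7 and 348.5 FPKM in EN replicates 1 to 3, against 472.3, 511.0 and 473.1 FPKM in EC replicates 1 to 3. No EN library reached the EC range, and on the log2 scale EN minus EC was -0.48 (SE 0.041, limma adjusted p = 0.0022). The cytoskeletal regulator Gas7 fell by 0.32, the adhesion molecule Ncam1 by 0.23 and the glial cadherin Cdh19 by 0.45 on the log2 scale, with limma adjusted p of 0.010, 0.013 and 0.030. The calls of Ncam1 and Cdh19 were lost without EN replicate 1, EN replicate 2, EC replicate 2 or EC replicate 3, where the highest limma adjusted p was 0.065 for Ncam1 and 0.104 for Cdh19. Without any 1 of these 4 libraries the list had 2 genes lower. Olig1, named after its values were seen, rose by 0.51 (limma adjusted p = 0.048) and lost its call with any 1 library left out. The glial filament gene Gfap, also named after its values were seen, was at 1.74 ± 0.111 FPKM in EN and 2.44 ± 0.397 FPKM in EC (SD, n = 3 each) and did not pass (limma adjusted p = 0.125).

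Among 14 tested receptors and axonal signals, 1 fell, 1 rose and 12 did not pass (median log2 change -0.043). That is 14.3% past the threshold, close to the 14.4% of all genes tested, so the count is not a result about this list. The lysophosphatidic acid receptor gene Lpar1 averaged 12.8 ± 0.922 FPKM in EN and 17.1 ± 1.08 FPKM in EC, and the neuregulin gene Nrg2 averaged 8.50 ± 0.624 FPKM in EN and 6.09 ± 0.490 FPKM in EC (SD, n = 3 each). Their limma adjusted p was 0.018 and 0.021. The Lpar1 call was lost without EN replicate 2, EC replicate 2 or EC replicate 3 (at most 0.069), and that of Nrg2 also without EN replicate 1 (at most 0.074). Among 8 tested genes of myelin lipid synthesis, the sterol enzyme gene Cyp51 was lower (272.5 ± 8.36 FPKM in EN and 430.7 ± 4.34 FPKM in EC, limma adjusted p = 4.11e-04), 7 did not pass, and the median log2 change was -0.099. Here too the share past the threshold, 12.5%, was close to the 14.4% of all genes tested.

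**Figure D4:**
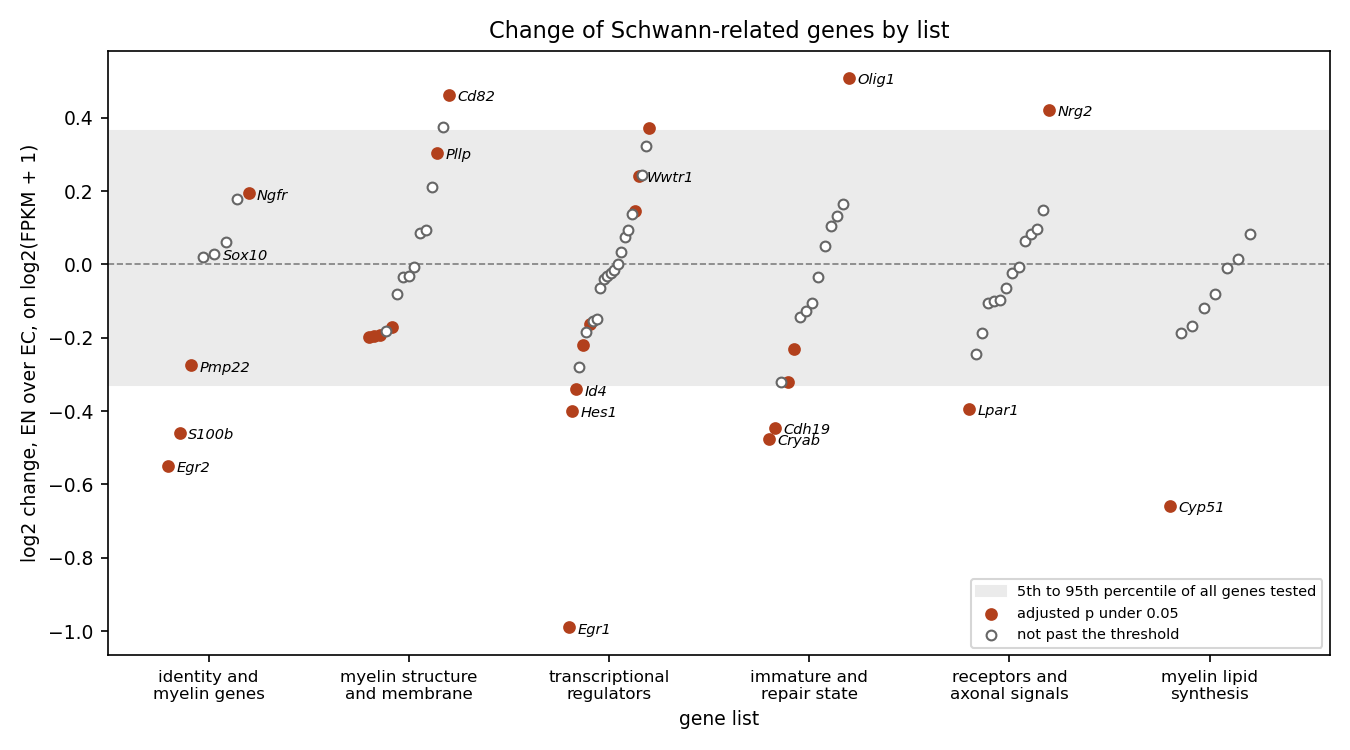
Log2 change of EN over EC on the log2(FPKM + 1) scale for each tested gene of the 9 members and of the 5 wider lists, apart from a few genes left unreported here. Red points passed the threshold, open points did not, and the grey band spans the 5th to 95th percentile of all genes tested, -0.33 to 0.36. Egr1, Cyp51, Egr2 and S100b are among the genes below the band, and Cd82 and Olig1 are among those above it.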

How the data were processed

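Total RNA was taken with Trizol and made into TruSeq libraries, per the labels' protocols. The authors deposited 1 table of FPKM for 33350 gene models. The submitters' processing notes name HISAT2 2.0.5 and the build Rnor_6.0, and the sources used here give no counting tool, strand setting or filter. In each library, multiplying FPKM by gene length gave multiples of a single step for 100% of non-zero values (within 0.01), from which reads and depths were taken. Models without a symbol held 0.808% to 0.848% of reads and stayed in the tests.

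EN was compared with EC by limma 3.58.1 (R 4.3.3) with a trended prior variance and no term but group. Values were log2(FPKM + 1), and genes averaging under 1 FPKM across the libraries were left out. Adjusted p-values are Benjamini-Hochberg values over the 12198 genes tested. This scale understates changes of low genes, while folds are ratios of mean FPKM. The script was tested on data simulated for EN against EC (12198 genes, 200 of them changed), where 5.88% of its 187 calls were false. It called 73.7% of the genes set there to a 1.25-fold difference, 93.0% at 1.5-fold and 100% at 2-fold. The share of false calls among the 1754 genes past the threshold in the deposited data was not tested. Library pairs were compared by chi-square on reads and no 2 were identical (3.82 to 8.98 per degree of freedom within groups, 10.6 to 23.4 between groups).

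The members and lists were chosen with earlier results of these data known. Named genes are the members, Ntn1, up to 4 genes with the smallest adjusted p of each Schwann list, and the 3 highest genes of each list of another cell type. The rule also takes a few genes left unreported here. Of 186 list entries, 5 were unmatched and 2 matched another symbol in RefSeq. Alternatives were pseudocounts of 0.1 and 0.5, other expression minimums (none, or 5 FPKM), TPM, quantile normalization, median centring, a replicate block, leaving out each library, and limma voom on whole reads.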

Additional observations from a re-analysis of the deposited data

How the results depend on the processing

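Egr2 and S100b kept their direction and their call under all 15 alternatives, with log2 changes of -0.61 to -0.49 and -0.51 to -0.40. Pmp22 lost its call under 2 of 15 and Ngfr under 5 of 15, 4 of them with 1 library left out and 1 without the expression filter (limma adjusted p = 0.059). Sox10 ranged from -0.031 without EN replicate 1, the only change of sign among the tested members (limma adjusted p = 0.71), to 0.086 without EN replicate 3. With 1 library left out, the members past the threshold were 2 to 3 lower and 0 to 1 higher. The genes of the wider lists were 8 to 20 lower and 1 to 7 higher. Over all genes, 185 to 1036 were lower and 143 to 1031 higher. Genes past the threshold in all were 345 to 446 without EN replicate 1, EN replicate 2, EC replicate 2 or EC replicate 3. They were 2067 without EN replicate 3 and 1614 without EC replicate 1, so the counts depend on which library is left out. Without the expression filter the counts were 0 members higher in limma (2 at an unadjusted p under 0.05, and 1 with voom), 4 list genes higher, and 467 lower and 399 higher over all genes. With voom, 12 list genes and 1387 genes in all were higher. The replicate numbers were not taken as pairs, because the titles do not say that they mark a shared culture or day. Correlations of deviations were 0.088, -0.095 and -0.020 for same-numbered libraries, and -0.111 to 0.134 for differently numbered ones. With 3 libraries per group these values do not settle pairing. With the replicate block 2 members were higher, Sox2 being added (limma adjusted p = 0.029), and 1907 genes passed in place of 1754. The median over all genes moved by no more than 0.02 on the log2 scale with another scaling. Causes were not tested. Depth limits Mbp, at 15 to 21 reads per library.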

Other observations

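Genes of the melanocyte, another derivative of the neural crest, were read as markers of another cell type. Of 6 melanocyte genes in the table, 3 were tested and 2 were lower in EN, against 7.14% of all genes tested. With only 3 genes tested, this count is not read as a result about the list. Tyrp1, a pigment enzyme gene, was at 1.74, 1.44 and 2.07 FPKM in EN replicates 1 to 3, against 5.24, 4.71 and 4.599 FPKM in EC replicates 1 to 3. The groups did not overlap, and on the log2 scale EN minus EC was -1.09 (SE 0.114, limma adjusted p = 0.0045, and 0.027 at most with 1 library left out). Mitf, the master factor of that lineage, was at 2.95 ± 0.029 FPKM in EN and 4.03 ± 0.310 FPKM in EC (SD, n = 3 each; limma adjusted p = 0.041), and its call was kept in 1 of 6 fits with 1 library left out. Pmel, at 7.52 ± 0.721 FPKM in EN and 8.41 ± 0.142 FPKM in EC, did not pass, and the opposite strand holds an overlapping gene, Dgka. Tyr had no read in any library. Summed over the 6 genes, levels were 11.8 to 12.5 FPKM in EN and 17.1 to 17.6 FPKM in EC.

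In the other marker lists, few genes were high enough to be tested. Over all genes tested 14.4% passed, so single calls in lists this small are not results about the lists. Of 3 tested chromaffin genes, Snap25 was lower in EN, at 3.48 ± 0.332 FPKM, against 5.33 ± 0.268 FPKM in EC (SD, n = 3 each; limma adjusted p = 0.017, and 0.069 at most with 1 library left out). Of 5 tested oligodendrocyte genes, Nkx2-2 was higher, at 17.1 ± 1.66 FPKM in EN and 12.7 ± 1.36 FPKM in EC (limma adjusted p = 0.035, and 0.116 at most with 1 library left out). Of 4 tested endothelial genes, Egfl7 was higher, at 6.09 ± 0.599 FPKM in EN and 4.12 ± 0.688 FPKM in EC (limma adjusted p = 0.041, and 0.126 at most with 1 library left out). Of 4 tested fibroblast genes, 0 passed in limma, 0 had an unadjusted p under 0.05 and 0 passed with voom.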
